A study of Mus musculus with 7 samples.

Results

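The cells described here carried the name Macrophages (P5) in the cell table that the authors deposited, and are called P5 cells below. All cells with exactly that name were taken, 3459 of the 28644 cells in the table, which used 23 cell type names. The cells came from mouse brain tumours: 7 mice, injected with 50000 CT-2A glioma cells (a mouse glioma line) into the brain at 8 to 12 weeks of age, gave 1 single-cell RNA library each. Live cells stained for CD45, CD11b or both were sorted from the dissociated, frozen and thawed tumour-bearing hemisphere, and mRNA molecules were counted from their 5′ end by unique molecular identifiers (UMIs). The study compared mice that lack Siglece in microglia with controls. Siglece encodes an inhibitory receptor of myeloid cells that binds sialic acid sugars.

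All 7 mice came from a Sall1CreERT2 x Siglece fl/fl line, made from a B6;129 driver allele and a B6.129P2 floxed allele, and all received 2.5 mg tamoxifen per injection, daily from day 7 to day 21 after tumour injection and every other day afterwards. The 4 mice labelled Siglece KO carried Cre, and the 3 mice labelled WT did not. They are called KO and WT here. Cre was driven by Sall1, a gene of microglia, so the deletion was directed at microglia and not at P5 cells. The comparison of genotypes in P5 cells is therefore between macrophages of mice with and without that targeting of microglia. The names of the mice below (KO 1 to KO 4 and WT 1 to WT 3) follow the numbers in the labels.

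Gliomas hold macrophages of more than one origin. Microglia settle in the brain before birth, whereas monocytes enter the tumour from the blood and lose monocyte genes as they turn into macrophages. Complement C1q, apolipoprotein E and the mannose receptor Mrc1 are widely used as genes of mature macrophages, Ly6c2, Plac8 and Chil3 as genes of inflammatory monocytes, and Tmem119, P2ry12 and Sall1 as genes of microglia. In the deposited names, P5 stands beside Monocytes (P1-P2), 1521 cells, and Macrophages (P3), 2095 cells. The microglia used for comparison were 414 cells under 2 names, Microglia and Microglia (Low-quality/activated), and KO 3, with 13 of them, was left out of that comparison, which leaves 6 mice.

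The libraries held 196 to 792 P5 cells per mouse, 26113628 UMIs in total and 1756235 to 6273335 per mouse. The median P5 cell had 6437 UMIs, 2309 genes and 2.703% mitochondrial UMIs, close in depth to P3 cells (6073 UMIs) and P1-P2 cells (5730 UMIs) and deeper than microglia (3058.5 UMIs). The median mitochondrial share was 1.76% in P3, 1.55% in P1-P2 and 3.66% in microglia. The median ribosomal share was 11.4% in P5, 11.2% in P3, 10.1% in P1-P2 and 3.72% in microglia. The part of these shares in the class differences was not tested. The median depth of P5 cells by mouse ran from 4577 UMIs in KO 2 to 12693 UMIs in KO 1. The libraries shared 460 barcodes, and 107 P5 cells carried one of them. By Xist and Y-linked genes, KO 1, KO 2 and WT 3 were female and the other 4 mice male, so neither genotype was of 1 sex.

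P5 cells carried the genes that mark their name. Levels are given as UMIs of the gene per 1000000 UMIs of that class in that mouse (CPM). C1qa, a chain of complement C1q, lay between 4352 and 5497 CPM in P5 cells (median 4610), between 1594 and 3022 CPM in P3 cells and between 410 and 1500 CPM in P1-P2 cells, with no overlap between the classes. Microglia had still more, 5461 to 7345 CPM, so C1qa did not separate P5 cells from microglia. Apoe, a lipid carrier, reached a median of 19523 CPM (9620 to 26182) in P5 cells, and Mrc1 a median of 149 CPM (47.5 to 169). Mrc1 was higher in P5 cells than in P3 and P1-P2 cells of the same mouse in all 7 mice, but its range overlapped that of P3 cells (14.0 to 113 CPM) and of microglia (12.6 to 64.3 CPM).

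Shares of cells with a UMI were compared after each cell was thinned to 3000 UMIs. C1qa was then seen in 98.5% of P5 cells, 80.3% of P3 cells, 58.3% of P1-P2 cells, 98.1% of microglia and 20.5% of T cells. Its share thus did not set P5 cells apart from microglia, of which 210 cells were deep enough. T cells do not make C1q, so their share is given as a background. What it came from was not tested. Apoe was seen in 99.8% of P5, 99.2% of P3, 97.2% of P1-P2, 93.3% of microglia and 59.4% of T cells, so its share did not set P5 cells apart from the other myeloid classes. Mrc1 was seen in 27.5% of P5, 15.7% of P3, 5.00% of P1-P2, 6.67% of microglia and 1.17% of T cells. Without thinning the Mrc1 shares were 47.0%, 26.8%, 9.06%, 10.5% and 2.04%. The median depths were 6437, 6073, 5730, 3058.5 and, for T cells, 4748 UMIs. The order of the classes was the same with and without thinning.

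**Figure D1:**
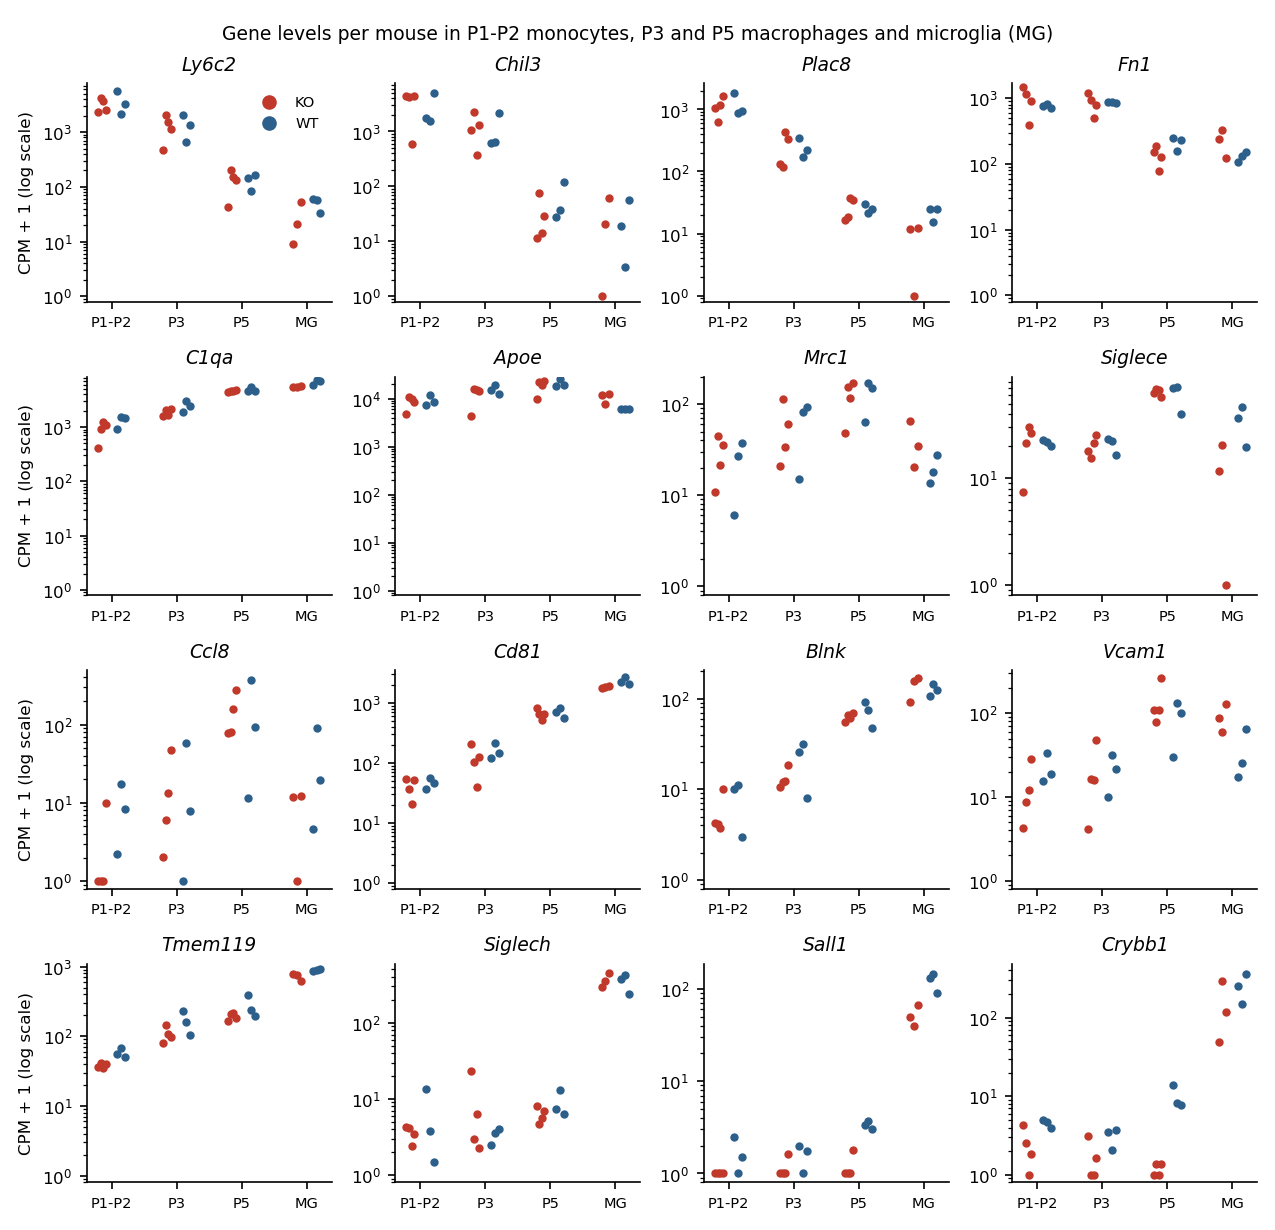
Levels of 16 genes in P1-P2, P3, P5 and microglia, 1 point per mouse, as CPM + 1 on a log axis. Monocyte genes such as Ly6c2 and Chil3 are lower in P5 than in P1-P2 and C1qa and Ccl8 higher, and the microglia genes Siglech, Sall1 and Crybb1 stay low in P5 cells.

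Against P3, the genes of largest fold were Ccl8, Ch25h and Fcrls on the high side and Chil3, Slpi and Ly6c2 on the low side. How the classes were named is not given in the sources used here, and the same cells may have set the names, so differences between classes are described without a test. A gene counts here when P5 differed from the other class at least 2-fold in the same direction within every mouse, on the scale of CPM plus 1, among genes with a mean of at least 10 CPM in one of the classes. By that rule 43 of 8229 genes were higher in P5 (0.523%) and 56 lower (0.681%).

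The gene with the largest median fold over P3 was Ccl8, a chemokine that attracts monocytes and T cells, with a median within-mouse fold of 11.9. Its level in P5 cells was 77.5, 78.9, 158 and 278 CPM in KO 1 to KO 4 and 10.5, 366 and 91.8 CPM in WT 1 to WT 3, against a mean of 18.6 CPM in P3. WT 1 was by far the lowest and WT 2 the highest, so Ccl8 varied more among P5 cells of different mice than between the genotypes. Cd81, a tetraspanin of the cell surface, was steadier, at 514 to 834 CPM (median 653) in P5 and 38.9 to 213 CPM in P3, a median fold of 5.28. Every P5 level of Cd81 lay above every P3 level.

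Blnk, an adaptor of immune receptor signalling, averaged 65.2 ± 14.2 CPM in P5 (SD, n = 7) and 16.0 CPM in P3, 4.87-fold. Vcam1, an adhesion molecule that binds integrins of white blood cells, averaged 117 ± 73.0 CPM against 20.2 CPM, 4.71-fold, again with WT 1 lowest at 28.7 CPM and KO 4 highest at 265 CPM. The other leading genes were Ch25h, which makes 25-hydroxycholesterol (7.22-fold), Fcrls (5.97-fold), the collagen gene Col14a1 (5.87-fold), the adhesion gene Cadm1 (5.57-fold), the receptor Cd72 (4.06-fold) and Hpgds, a prostaglandin D2 synthase (3.98-fold). Fcrls, Blnk and Cd72 are also expressed by microglia or B cells, and B cell markers summed to 71.5 to 162 CPM in P5 cells and 16.9 to 46.6 CPM in P3 cells. The sum was 80.4 to 176 CPM in microglia, 69.4 to 147 CPM in proliferating macrophages and 75.0 to 121 CPM in monocyte-derived dendritic cells. In P1-P2 cells it was 20.2 to 54.7 CPM, so the higher sum was not particular to P5 cells. The part of microglia or B cells in the differences between P5 and P3 was not tested.

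Genes of monocytes led the low side. Chil3, a chitinase-like protein of monocytes and neutrophils, was at 10.6 to 122 CPM in P5 and 371 to 2215 CPM in P3, 26.4-fold lower by the median over mice. Ly6c2, the surface antigen used to sort inflammatory monocytes, was at 41.1 to 201 CPM in P5 and 460 to 2069 CPM in P3, 10.0-fold lower. Fn1, fibronectin, was at 76.3 to 248 CPM against 497 to 1196 CPM, 5.52-fold lower. None of these genes had a P5 level within the P3 range. The protease inhibitor Slpi (14.9-fold), the clotting factor gene F10 (9.86-fold), haptoglobin Hp (9.57-fold), Plac8 (8.70-fold), Hopx (7.59-fold), Mcemp1 (6.89-fold) and the chemokine Cxcl3 (6.63-fold) made up the rest of the leading genes. Slpi was uneven between mice, with P3 levels from 17.7 to 1038 CPM and P5 levels from 2.53 to 25.7 CPM.

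Against P1-P2 the same picture widened. At least 2-fold in every mouse, 130 of 8291 genes were higher in P5 (1.57%) and 145 lower (1.75%). Cd81 was at 42.2 ± 12.7 CPM in P1-P2 and 673 ± 119 CPM in P5, a median fold of 15.7. Ccl8 (27.95-fold), Fcrls (14.9-fold) and Ms4a7, a membrane protein of macrophages, with 113 CPM in P1-P2 and 810 CPM in P5 (7.76-fold), also led. Igfbp4, an IGF binding protein, was the 1 leading gene besides Ms4a7 that was not among the 10 leading against P3.

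On the low side, Chil3 was 54.4-fold, Plac8 41.9-fold, Hp 32.6-fold and Ly6c2 24.8-fold lower in P5 than in P1-P2. Ly6c2 was at 2128 to 5699 CPM in P1-P2 cells and 41.1 to 201 CPM in P5 cells, far apart in every mouse. Vcan, the proteoglycan versican, was at 1.67 CPM in P5. Ly6a2, Slpi, Ifitm6 and Ms4a8a were also among the 10 genes with the largest fold.

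P3 took the middle place for most of these genes. Of the 130 genes higher in P5 than in P1-P2, 126 had a P3 median over mice between the medians of P1-P2 and P5. So did 141 of the 145 lower genes. Over all 8291 genes the share was 62.8%, and since the genes were chosen for a wide gap a higher share is a property of the choice. P3 was nearer to P5 than to P1-P2 for 32 and 48 of them. P5 levels were correlated with those of other classes within each mouse across 8024 genes with a mean of at least 10 CPM in P5. Genes below that level in P5 were left out even where another class had more. The median Spearman correlation was 0.938 with P3, 0.892 with P1-P2, 0.877 with proliferating macrophages, 0.832 with monocyte-derived dendritic cells, 0.757 with microglia and 0.656 with T cells. These correlations are across genes within mice, share libraries, and describe only the order. The classes differed in total UMIs, with 14388137 in P3 and 1799869 in microglia. The part of depth in the order was not tested.

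**Figure D2:**
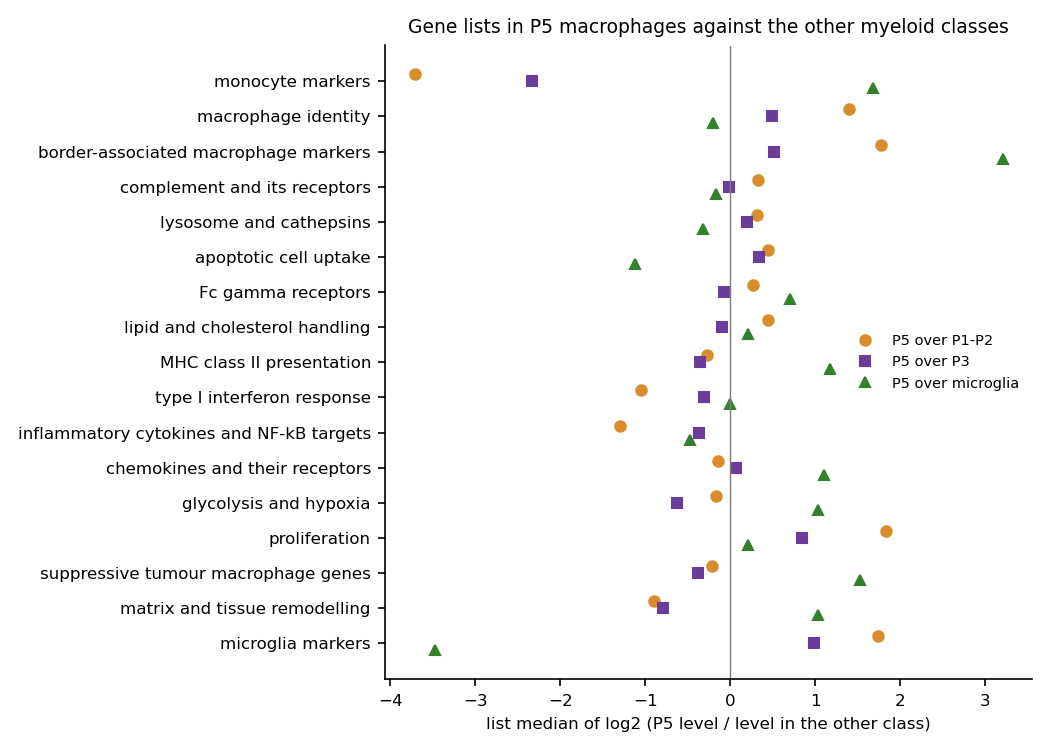
Median log2 ratio of P5 over P1-P2, P3 and microglia for 17 gene lists, each point the median over the members measured of the median over mice. Monocyte markers are lowest against both neighbours, and microglia markers against microglia.

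The gene lists describe RNA levels of P5 cells by theme, without a test and without a measure of function. Of 13 monocyte markers, 9 of 12 measured against P3 and 11 of 13 measured against P1-P2 were at least 2-fold lower in every mouse, and none was higher. Of all genes, 0.681% and 1.75% were 2-fold lower in this way. Against microglia the monocyte markers went the other way, with 5 of 10 measured higher in every mouse and a median log2 ratio of 1.68. Of 15 macrophage identity genes, 10 were higher in every mouse than in P3 and 12 than in P1-P2, and 7 were at least 2-fold higher than in P1-P2. Against microglia 3 were higher and 8 lower in every mouse (median log2 ratio -0.20), where 13.3% of all genes were higher and 24.6% lower (median -0.27). Among all genes, 14.1% were higher in every mouse than in P3 and 21.8% than in P1-P2.

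Lysosome and cathepsin genes, which break down engulfed material, were higher in every mouse for 15 of 28 members against P3 and 15 of 28 against P1-P2, with a small median log2 ratio of 0.20 and 0.32, where 14.1% and 21.8% of all genes were higher. Against microglia 2 were higher and 9 lower in every mouse (median -0.32), near the 13.3% and 24.6% of all genes (median -0.27). Glycolysis and hypoxia genes went the other way against P3: 21 of 23 were lower in every mouse, with a median log2 ratio of -0.63, where 9.59% of all genes were lower. Against P1-P2 the median was -0.16 and 6 of 23 were lower in every mouse. Against microglia 12 of 23 were higher in every mouse (median 1.03), where 13.3% of all genes were.

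Interferon and inflammatory genes were lower in relation to monocytes. Of 28 genes of the type I interferon response, 20 were lower in every mouse than in P1-P2 (12.6% of all genes) and 7 than in P3, with median log2 ratios of -1.05 and -0.31. Of 20 measured cytokines and NF-kB targets, 14 were lower in every mouse than in P1-P2, with a median of -1.30. Dissociation stress genes were lower as well, 7 of 16 in every mouse against P1-P2 (median -0.56) and 9 of 16 against P3 (-0.29). Of all genes, 12.6% and 9.59% were lower in this way. The part of dissociation stress in the other lists was not tested. Of 18 measured matrix and tissue remodelling genes, 11 were lower in every mouse against each of the neighbours, where 9.59% (P3) and 12.6% (P1-P2) of all genes were lower. Against microglia 10 of 17 were higher in every mouse and 4 lower, where 13.3% of all genes were higher and 24.6% lower.

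Of 18 measured genes of suppressive tumour macrophages, 11 were lower than in P3 in every mouse and 2 higher, where 9.59% of all genes were lower and 14.1% higher. Against P1-P2, 6 of 19 were lower in every mouse and 1 higher, where 12.6% of all genes were lower and 21.8% higher. Against microglia 3 of 18 were lower and 8 higher (median log2 ratio 1.53), where 24.6% of all genes were lower and 13.3% higher. Arg1, which breaks down arginine and is used as a marker of such cells, was at 41.9 to 479 CPM in P5, 413 to 2127 CPM in P3 and 54.2 to 673 CPM in P1-P2. Its peak was in P3, and within each mouse P5 was lower than P3. WT 1 was the lowest mouse in all of these classes.

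MHC class II genes, which present antigen to CD4 T cells, separated P5 cells little from their neighbours. The median log2 ratio was -0.35 against P3 (1 of 10 members higher in every mouse, 2 lower) and -0.28 against P1-P2 (1 of 11 higher, 1 lower). Of all genes, 14.1% were higher and 9.59% lower than in P3, and 21.8% and 12.6% than in P1-P2. Most members leaned lower, as 1 of 10 and 1 of 11 had a median over mice above 0. Against microglia the median log2 ratio was 1.17, with 7 of 12 higher in every mouse and 4 at least 2-fold. Over all genes the median against microglia was -0.27, and 13.3% were higher in every mouse.

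Proliferation genes were higher in P5 than in P1-P2 in every mouse for 16 of 19 members (median log2 ratio 1.83) and than in P3 for 7 of 19 (0.85), where 21.8% and 14.1% of all genes were, although proliferating macrophages, 402 cells, carry a name of their own. Against microglia 0 of 20 members were higher in every mouse and 1 was lower (median 0.21), where 13.3% of all genes were higher and 24.6% lower. Mki67, a protein of dividing cells, was at 57.5 to 129 CPM in P5, 20.3 to 101 CPM in P3 and 32.5 to 64.8 CPM in P1-P2. In the deposited phase calls, 79.97% of P5 cells were G1, and S phase calls ran from 3.06% in KO 3 to 22.7% in WT 1.

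P5 cells and microglia were far apart. At least 2-fold in every one of 6 mice, 134 of 9356 genes were higher in P5 (1.43%) and 438 lower (4.68%). Pf4, a chemokine stored in platelets and made by some macrophages, was 19.7-fold higher in P5, the tartrate-resistant acid phosphatase Acp5 12.9-fold, Ms4a7 12.2-fold and Stap1, a signalling adaptor, 37.5-fold. Acp5 was at 330 to 547 CPM in P5 and 16.7 to 48.2 CPM in microglia, without overlap. The other leading genes were the neutrophil-attracting chemokine Cxcl1 (22.003-fold), Sirpb1a, Gm36161, Tnfsf13, Dpep2 and Ms4a4a. Microglia levels were low for some of these genes, 3.13 ± 4.93 CPM for Stap1 and 10.0 ± 13.6 CPM for Cxcl1 (SD, n = 6). The microglia of KO 2 held 51086 UMIs in all, so such folds depend on few UMIs and on the 1 CPM added.

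All 12 microglia markers were lower in P5 than in microglia in every mouse, and 11 of them at least 2-fold, where 24.6% of all genes were lower in every mouse. Siglech, a receptor of microglia, was 43.0-fold lower, Sparc, a matrix protein, 45.9-fold, and Sall1, the gene that drives Cre in this study, 39.1-fold, at 0 to 2.69 CPM in P5 and 39.2 to 145 CPM in microglia. The markers were not all equally low. Tmem119 was at 163 to 389 CPM in P5 and 628 to 928 CPM in microglia, and P5 exceeded P3 for 7 of 8 measured microglia markers in every mouse, as for 14.1% of all genes. Whether this comes from microglia RNA or cells among P5 cells was not tested. Adamts1 (139-fold), Nav3, Crybb1 (47.9-fold), Adgrg1, Mlxipl, Slc1a3 and Csmd3 were the other leading genes on the low side.

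Markers of macrophages at the borders of the brain were split. Pf4 was at 63.2 to 276 CPM in P5 and Stab1, a scavenger receptor, averaged 273 CPM, whereas Folr2 averaged 2.07 CPM, Cd163 had 3 UMIs and Lyve1 had 1 UMI in all P5 cells. Among neutrophil markers, S100a8 averaged 4.64 CPM and the whole list summed to 43.1 to 59.5 CPM. T cell markers summed to 15.6 to 76.3 CPM in P5 cells and to 3958 to 6243 CPM in T cells.

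Siglece itself was higher in P5 cells than in P3 and P1-P2 cells. It was at 62.2, 67.3, 66.0 and 56.8 CPM in KO 1 to KO 4 and 69.0, 71.5 and 39.4 CPM in WT 1 to WT 3, and at 14.5 to 24.4 CPM in P3 and 6.50 to 29.0 CPM in P1-P2. Every P5 value lay above every P3 and P1-P2 value, while microglia spread from 0 to 45.9 CPM on few UMIs and overlapped all of them. The microglia range takes in KO mice, in which Siglece was the target, so P5 cells are not ranked against microglia. After thinning, a Siglece UMI was seen in 16.8% of P5 cells, 5.58% of P3, 6.09% of P1-P2, 9.05% of microglia and 0.979% of T cells. Without thinning the shares were 32.0%, 11.1%, 11.6%, 15.7% and 1.72%.

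No genotype difference of Siglece in P5 cells passed the test. The mean was 63.1 ± 4.74 CPM in KO (SD, n = 4) and 60.0 ± 17.9 CPM in WT (SD, n = 3), a log2 difference of 0.10 (SE 0.19, adjusted p = 0.951 by edgeR's quasi-likelihood test with Benjamini-Hochberg adjustment over all genes tested). The ratio of pooled levels, 1.02, had a counting interval of 0.920 to 1.13 (95%). UMIs were counted at the 5′ end of transcripts, so RNA that lacks the floxed part would be counted as well where it persists. Cre was directed at microglia, so P5 cells are no check of the deletion. Of the other Siglec genes, Cd33, an inhibitory receptor of myeloid cells, differed by 0.48 (SE 0.20, adjusted p = 0.716), Siglec1 by -0.13 (adjusted p = 0.961), Mag by 0.36 (adjusted p = 0.817) and Cd22 by 0.02 (adjusted p = 0.999).

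P5 cells made up a smaller part of all sorted cells in KO mice. They were 14.0%, 10.4%, 4.13% and 6.69% of all cells in KO 1 to KO 4 and 22.6%, 17.8% and 16.9% in WT 1 to WT 3. All KO values lay below all WT values. The means were 8.81% ± 4.31 and 19.1% ± 3.10, a difference of -10.3 percentage points (two-sided exact permutation p = 0.0571, adjusted over 3 denominators 0.171). The design has 35 divisions of the mice, and the smallest p they can give is 0.0286.

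Within the myeloid and the monocyte-derived cells the genotypes overlapped. Myeloid cells are here microglia, monocytes, macrophages and all dendritic cells. Monocyte-derived cells are here P1-P2, P3, P5 and proliferating macrophages, without the monocyte-derived dendritic cells. Of myeloid cells, P5 were 29.8%, 24.9%, 24.5% and 22.5% in KO mice and 27.2%, 31.8% and 27.0% in WT mice, a difference of -3.27 points (exact permutation p = 0.286, adjusted 0.429). Of monocyte-derived cells they were 59.3%, 51.1%, 44.6% and 44.7% in KO mice and 42.6%, 55.1% and 38.0% in WT mice, a difference of 4.75 points (exact permutation p = 0.457, adjusted 0.457). The number of P5 cells per P1-P2 cell ran from 1.90 to 5.79 in KO mice and from 1.38 to 4.19 in WT mice, and per P3 cell from 1.44 to 3.08 and from 1.12 to 2.41. A share depends on the other cells in the sort, so the first difference does not say whether P5 cells were fewer or other cells more.

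**Figure D3:**
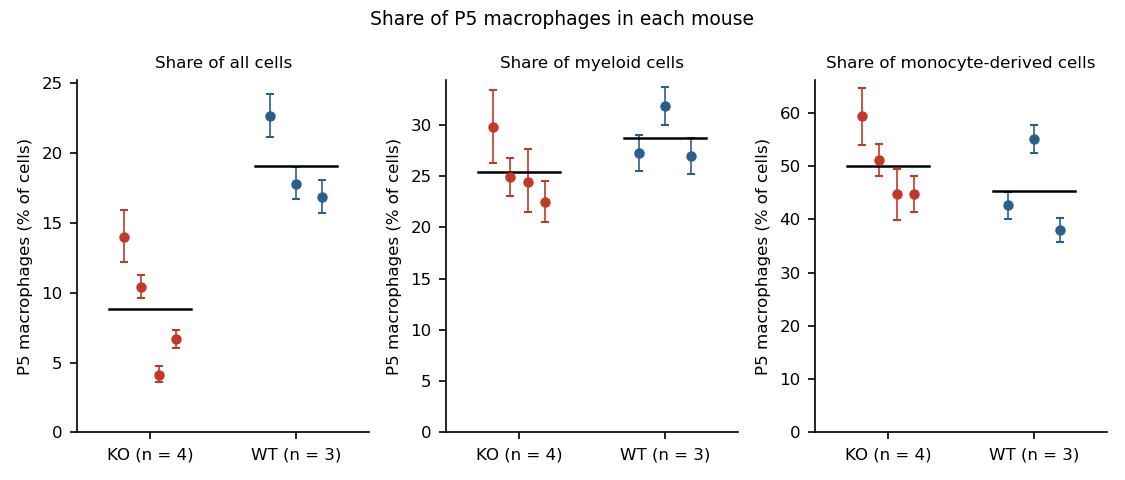
P5 cells as percent of all cells, of myeloid cells and of monocyte-derived cells, 1 point per mouse with its 95% exact binomial interval, which covers counting error only, and bars at the group means. The KO mice sit below the WT mice only for the share of all cells, 4.13% to 14.0% against 16.9% to 22.6%.

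Few single genes of P5 cells differed between the genotypes. UMIs of P5 cells were summed per mouse and tested with edgeR in 10632 genes, with Benjamini-Hochberg adjustment and a threshold of 0.05. None was called higher in KO (0.0%) and 2 were called lower (0.0188%), Crybb1 and H2ac8, while 721 genes had an unadjusted p under 0.05. DESeq2 called 20 genes, 15 higher and 5 lower, among them both of these. The 4 KO values lay above all WT values for 2.79% of the genes and below them for 4.52%, in all 7.32%.

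Crybb1, a crystallin gene expressed by microglia, was at 0, 0.362, 0 and 0.389 CPM in P5 cells of KO 1 to KO 4 and at 13.1, 7.18 and 6.75 CPM in WT 1 to WT 3. The KO mice had 2 UMIs in all, and the WT mice 82, 40 and 30. Crybb1 fell by 5.44 on the log2 scale (SE 0.62, adjusted p = 0.0284), and the ratio of pooled levels was 0.0218 with a counting interval of 0.0026 to 0.0801. Microglia had 203.9 CPM on average, and there the genotype difference was -1.13 (SE 0.59, adjusted p = 0.514). In P3 cells Crybb1 had 22 UMIs, at 0 to 2.77 CPM, and in P1-P2 cells 26 UMIs, at 0 to 3.92 CPM.

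Crybb1 was the only 1 of the 10 microglia markers tested that was called, by edgeR and by DESeq2. Of the 10, 9 had a negative log2 difference, 4 had an unadjusted p under 0.05, and 2, Crybb1 and Sparc, had all KO values below all WT values (4.52% of all genes did). The 12 markers summed to 1190 to 1337 CPM in KO and 1339 to 2342 CPM in WT. Sall1 had 0, 0, 0 and 2 UMIs in KO 1 to KO 4 and 15, 15 and 9 in WT 1 to WT 3 (ratio of pooled levels 0.0850, counting interval 0.0099 to 0.328), too few to enter the test. Siglech, with 52 UMIs in KO and 132 in WT, had a ratio of 0.653 (0.464 to 0.906) and overlapped between genotypes. Microglia were 30, 21, 13 and 49 of the 1410, 5305, 4744 and 5856 cells of KO 1 to KO 4. In WT 1 to WT 3 they were 113, 92 and 96 of 2934, 4449 and 3946 cells. The part of microglia RNA or cells in the Crybb1 result was not tested. Only the KO mice carried Cre, so effects of the Sall1CreERT2 allele itself and of the Siglece deletion cannot be told apart here.

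H2ac8, a replication-dependent histone gene, was at 25.1, 24.4, 27.5 and 21.7 CPM in KO 1 to KO 4 and 61.7, 48.5 and 65.2 CPM in WT 1 to WT 3, without overlap. It fell by 1.22 on the log2 scale (SE 0.15, adjusted p = 0.0286). Of its UMIs, 39.9% sat in values that were not whole numbers, and histone genes of this family are near copies of each other, so its level is uncertain. In P1-P2 cells the difference was -1.03 (SE 0.29, adjusted p = 0.535) and in P3 cells 0.27 (SE 0.72, adjusted p = 0.991). S phase calls of P5 cells, which such genes can follow, were 18.8%, 6.33%, 3.06% and 6.12% in KO mice and 22.7%, 9.47% and 20.6% in WT mice, and overlapped. With G1 cells only, no gene was called, while the log2 difference was -1.02 for H2ac8 (adjusted p = 0.217) and -6.00 for Crybb1 (adjusted p = 0.107).

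Neither call held in every refit. Without KO 1, KO 2, KO 3, WT 1 or WT 3 no gene was called, without KO 4 or WT 2 there were 4. Crybb1 kept its direction in the 18 alternatives in which it was tested, at -6.03 to -4.97, and was called in 10. With equal numbers of cells per mouse it did not pass the filter on low counts. H2ac8 kept its direction in the 18 in which it was tested, at -1.33 to -1.02, and was called in 7. H2ac8 was left out where genes with values that were not whole were removed. The minimum of 10 cells per mouse left out no mouse, so it repeated the main fit and is among the calls of both genes.

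**Figure D4:**
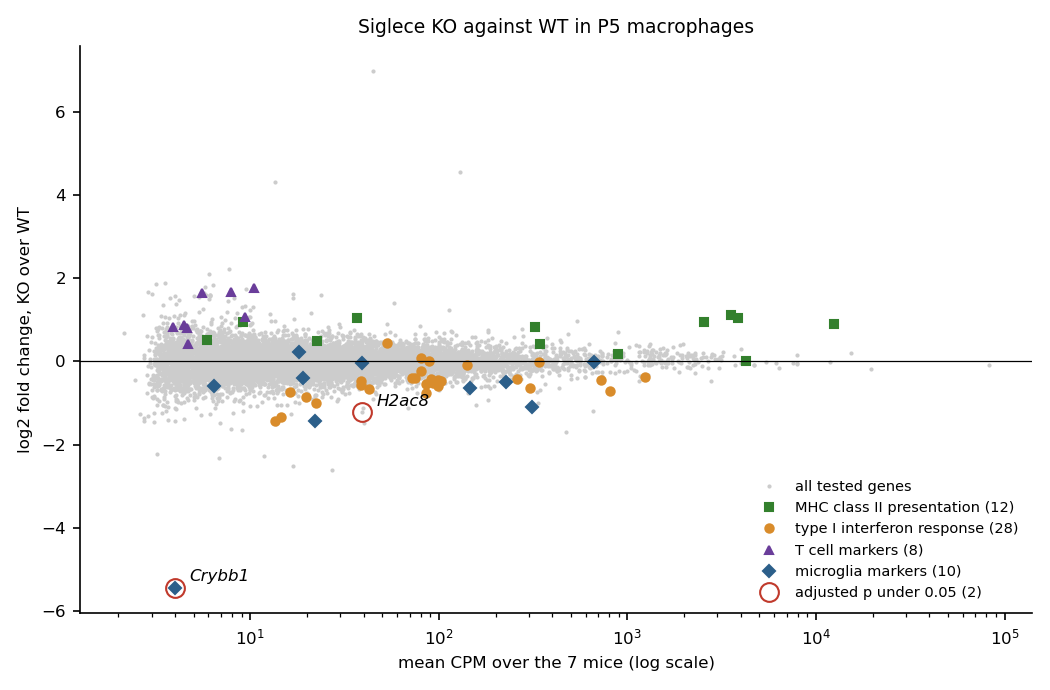
Log2 ratio of KO over WT in P5 cells against mean CPM on a log axis for 10632 genes, with 4 gene lists coloured and the 2 called genes ringed. MHC class II members lie above 0 and most type I interferon members below it, and none of either list was called.

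The genes of lowest p after these were not called by edgeR. On the high side they were Ctsw, a protease of cytotoxic lymphocytes (log2 2.24, adjusted p = 0.241), Klrd1, a receptor of natural killer cells (1.61), Sh2d2a, an adaptor of T cells (1.45), Gm20703 (1.85) and Tespa1, of T cell signalling (2.10), each of the last 4 with an adjusted p of 0.548. Ctsw was at 13.2, 11.2, 13.7 and 8.55 CPM in KO and 1.28, 3.59 and 2.6999 CPM in WT P5 cells, against 527 CPM in T cells. In T cells Klrd1 averaged 409 CPM, Sh2d2a 554 CPM and Tespa1 35.3 CPM. Gm20703 averaged only 0.160 CPM in T cells, below its 5.42 CPM in P3 and 7.77 CPM in P1-P2. In P5 cells all 5 genes were higher in every KO mouse than in any WT mouse, which was part of the rule that chose them.

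T cell markers differed in the same direction, but edgeR called none of them. All 8 tested had a positive log2 difference (median 0.98), 4 had an unadjusted p under 0.05, and DESeq2 called 1, Cd3e. In 4 of the 8 all KO values lay above all WT values, as in 2.79% of all genes, and the summed level of the list was 68.8 to 76.3 CPM in KO and 15.6 to 55.9 CPM in WT. In P3 cells 6 of 6 tested markers were positive (median 1.18) and in P1-P2 cells 3 of 3 (1.53). Cd3e, a chain of the T cell receptor complex, was at 11.3, 14.8, 19.9 and 14.0 CPM in KO and 1.75, 6.11 and 5.62 CPM in WT (log2 1.76, SE 0.39, adjusted p = 0.605). P5 cells with a T cell marker UMI were 15.7%, 27.5%, 45.9% and 33.2% in KO mice and 6.48%, 23.2% and 14.3% in WT mice. Without those cells 1 gene was called, Crybb1, and Ctsw differed by 2.95 (adjusted p = 0.726), Sh2d2a by 2.04, Gm20703 by 2.16, Tespa1 by 2.00 and Klrd1 by 1.06. Among the 15 genes that DESeq2 called higher in KO were Ctsw, Klrd1, Sh2d2a, Gm20703, Tespa1 and Cd3e. The largest log2 differences among the 15 were those of Rps3a3 (6.91, adjusted p = 0.00464), Rps3a2 (4.55) and Gm5586 (4.35), which are not on the T cell list.

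On the low side the next genes were Pdgfb, a growth factor (-1.11, adjusted p = 0.485), Dynll1, a dynein light chain (-0.73, adjusted p = 0.548), and Itsn1, an endocytosis scaffold (-0.78, adjusted p = 0.548). Dynll1 was at 241, 237, 257 and 293 CPM in KO and 421, 431 and 449 CPM in WT. Within each genotype its values were close together and apart from the other genotype. Pdgfb was at 23.3 to 29.6 CPM in KO and 40.9 to 75.2 CPM in WT. DESeq2 called Pdgfb (adjusted p = 0.0144) and Dynll1 (adjusted p = 0.00185) lower in KO.

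MHC class II genes were higher in KO P5 cells on average, with wide spread. All 12 tested members had a positive log2 difference (median 0.87, over all genes -0.0038 with 49.4% positive), and none was free of overlap. By edgeR none was called, 2 had an unadjusted p under 0.05, and DESeq2 called none. H2-Aa was at 2371, 3746, 6538 and 7133 CPM in KO 1 to KO 4 and 608, 3052 and 3503 CPM in WT 1 to WT 3 (log2 1.05, SE 0.69, adjusted p = 0.818). WT 1 was far below all other mice, and KO 1 lay within the WT range. The invariant chain Cd74 was at 8434, 13385, 20505 and 20016 CPM in KO and 2085, 10733 and 11964 CPM in WT, with WT 1 lowest again (log2 0.91, SE 0.65, adjusted p = 0.832).

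WT 1 carried much of this size. Without it the difference was 0.59 for H2-Aa and 0.45 for Cd74. Ciita, the master regulator of class II genes, was at 17.2 to 66.9 CPM in KO and 8.29 to 30.7 CPM in WT (log2 1.04, adjusted p = 0.790). In P3 cells 9 of 11 tested members were positive (median 0.54) and in P1-P2 cells 7 of 11 (0.06), each in its own fit on the same mice, where 52.3% and 50.2% of all genes were positive. In microglia 0 of 9 were positive (median -0.47).

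Type I interferon genes, which answer viral and nucleic acid signals, lay on the other side. Of 28 tested, 25 had a negative difference (median log2 -0.48), and 4 had all KO values below all WT values (4.52% of all genes did). By edgeR none was called, 8 had an unadjusted p under 0.05, and DESeq2 called none. Bst2, tetherin, was at 377, 609, 673 and 855 CPM in KO and 1104, 877 and 1135 CPM in WT (log2 -0.70, SE 0.24, adjusted p = 0.698). KO 1 was lowest, and KO 4 lay just below WT 2. Cmpk2 (-1.33, adjusted p = 0.675), Ifi44 (-1.43, adjusted p = 0.698) and Rtp4 (-0.52, adjusted p = 0.698) were the other 3.

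The neighbours gave the same sign. In P3 cells 28 of 28 members were negative (median -0.68) and in P1-P2 cells 28 of 28 (-0.64), while in microglia 12 of 24 were negative (-0.01). Bst2 differed by -0.87 in P3 and -0.98 in P1-P2 (adjusted p = 0.867 and 0.535). These classes come from the same mice, so they are not separate evidence.

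**Figure D5:**
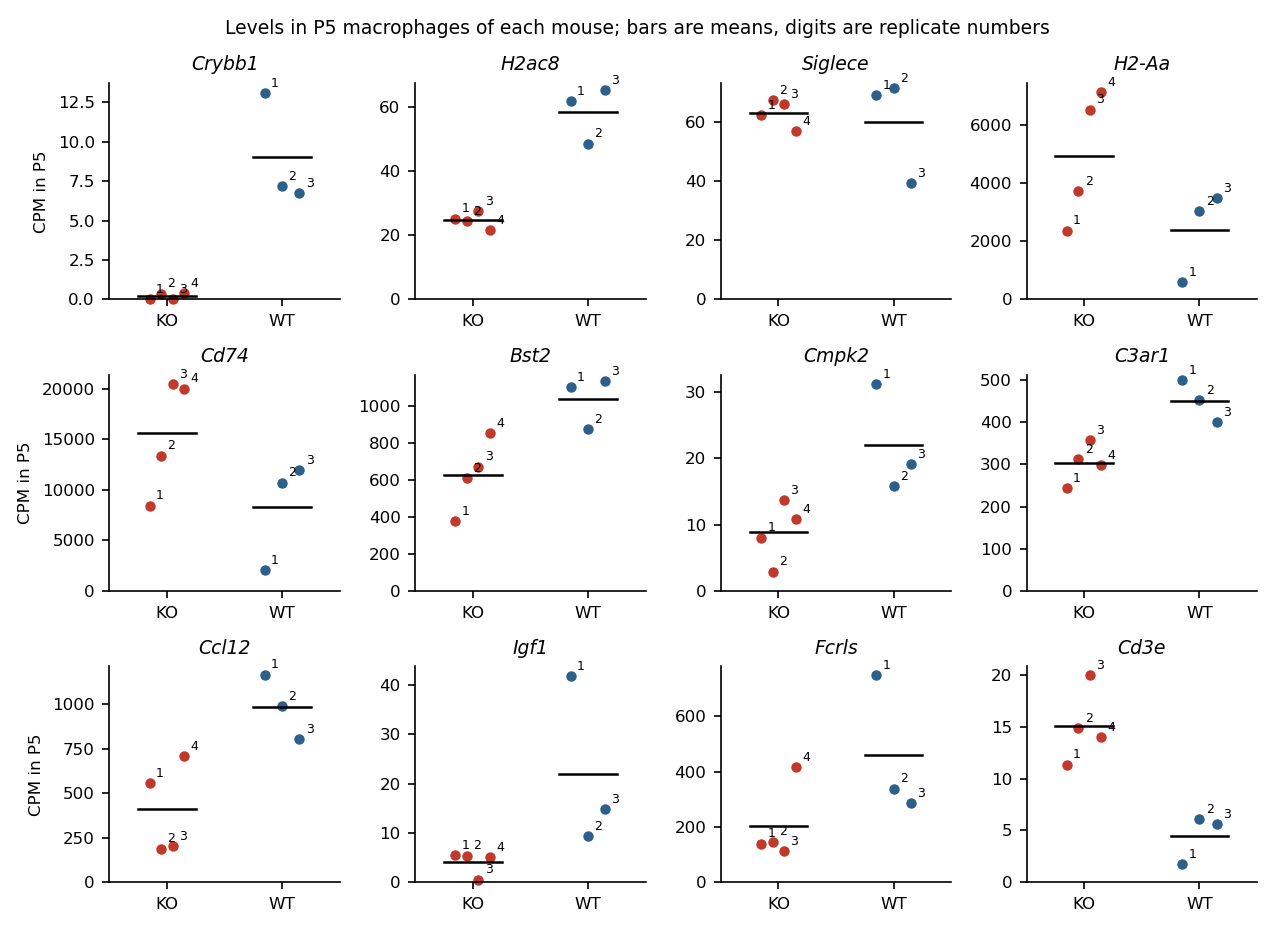
CPM of 12 genes in P5 cells of each mouse, KO and WT side by side. Crybb1 and H2ac8 separate the genotypes, Siglece does not, and WT 1 is the lowest mouse for H2-Aa and Cd74.

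Of 14 complement genes and receptors tested, 10 had a negative log2 difference and 3 had all KO values below all WT values (4.52% of all genes did). By edgeR none was called, 2 had an unadjusted p under 0.05, and DESeq2 called none. C3ar1, the receptor of complement fragment C3a, was at 243, 313, 357 and 298 CPM in KO and 500, 453 and 401 CPM in WT (log2 -0.55, SE 0.15, adjusted p = 0.622). C5ar1, the C5a receptor, was at 163 to 229 CPM and 262 to 287 CPM (-0.44, adjusted p = 0.698), and C1qb at 5907 to 6307 CPM and 6506 to 7175 CPM (-0.15, adjusted p = 0.826). The groups did not overlap for these 3, and the difference for C1qb was small. C3ar1 differed by -0.62 in P3 and -0.36 in P1-P2 cells.

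Of 23 tested chemokines and receptors, 14 had a negative and 9 a positive log2 difference (median -0.17), and edgeR and DESeq2 called none. In the members that separated the genotypes the spread was wide. Ccl12, which attracts monocytes, was at 555, 190, 205 and 707 CPM in KO and 1164, 986 and 803 CPM in WT (log2 -1.20, SE 0.49, adjusted p = 0.730). Ccl7, of the same family, was at 103 to 335 CPM in KO and 435 to 536 CPM in WT (-1.004, adjusted p = 0.705), and Pf4 at 63.2 to 227 CPM and 243 to 276 CPM (-0.93, adjusted p = 0.723). Among chemokines and their receptors 3 of 23 tested had all KO values below all WT values, against 4.52% of all genes.

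Of 21 tested members of the list of colony-stimulating and growth factor receptors, 15 had a positive and 6 a negative log2 difference (median 0.07). In 1 all KO values lay above all WT values and in 2 below, as in 2.79% and 4.52% of all genes. By edgeR none was called, and DESeq2 called 2. Igf1, an insulin-like growth factor, was at 5.48, 5.43, 0.569 and 5.05 CPM in KO and 41.8, 9.34 and 14.8 CPM in WT (log2 -2.29, SE 0.63, adjusted p = 0.675). DESeq2 called it lower in KO (adjusted p = 0.0317). Without WT 1, the highest mouse, the difference was -1.47. Fcrls, a leading gene of P5 over P3 and also a microglia marker, was at 140, 147, 113 and 415 CPM in KO and 750, 339 and 287 CPM in WT (-1.11, adjusted p = 0.761), and overlapped through KO 4.

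Few transcription factors separated the genotypes. Maf, a factor of macrophage identity, was at 74.6 to 102 CPM in KO and 106 to 152 CPM in WT (-0.52, adjusted p = 0.675), and Rbpj, the effector of Notch signalling, at 68.0 to 97.0 CPM and 115 to 146 CPM (-0.62, adjusted p = 0.622). Tgfbi, a matrix protein, was higher in KO, at 1239 to 1649 CPM against 1013 to 1161 CPM (0.43, adjusted p = 0.698). Of 26 transcription factors, 24 were tested and 2 separated the genotypes, a share near the 7.32% of all genes that did so. The P5 markers Apoe, C1qa and Mrc1 differed by -0.18, -0.08 and -0.05, with overlap.

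Lysosome, glycolysis, proliferation and monocyte genes had medians near 0 between the genotypes. Of 28 lysosome genes, 9 were positive and 19 negative (median -0.05), of 24 glycolysis and hypoxia genes 9 and 15 (-0.09), of 20 proliferation genes 10 and 10 (-0.05), and of 11 monocyte markers 6 and 5 (0.02). Neither edgeR nor DESeq2 called any of their members, and 1 lysosome gene and none of the others had an unadjusted p under 0.05.

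The genotype difference itself was compared between P5 and the other classes in the same mice by an interaction term in edgeR. Against P3, none of 11025 genes passed the test (0.0%), with 613 at an unadjusted p under 0.05. Against P1-P2, 2 of 10733 did (0.0186%), Procr and the immunoglobulin segment Igkv1-135. Procr, the protein C receptor, averaged 13.004 CPM in KO and 5.79 CPM in WT P5 cells and 10.9 and 28.8 CPM in P1-P2 cells, a difference of the differences of 2.74 (SE 0.42, adjusted p = 0.0138). It was lost without KO 4. All 321 UMIs of Igkv1-135 in P5 cells came from WT 2, so that result rests on 1 mouse.

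Against microglia, 59 of 10593 genes differed (0.557%), 38 with a higher difference in P5 and 21 with a lower one, over 3 KO and 3 WT mice with 21 to 113 microglia each. The count was 14 without KO 1, 33 without KO 2, 100 without KO 4, 16 without WT 1 and 22 without WT 3. H2-Aa differed by 1.60 (SE 0.29, adjusted p = 0.000102) and stayed called without each mouse in turn. Lgals3, galectin-3, averaged 1163 CPM in KO and 1096 CPM in WT P5 cells but 113 and 374 CPM in microglia, a difference of 2.09 (adjusted p = 1.13e-06). Crybb1 differed by -4.28 (adjusted p = 0.000102), lower in KO to a larger extent in P5 cells than in microglia.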

How the data were processed

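Sequencing reads were counted with STARsolo (STAR 2.7.10a) on mm10, per the submitters' processing notes. The authors deposited unscaled expected counts (UMIs, a value for each gene in each cell), and in P5 cells 6.15% of UMIs sat in values that were not whole. A second table deposited by the authors holds, for each cell, a count of genes seen, the percent of mitochondrial and ribosomal UMIs, and the cell type names, whose method is not given in the sources used here, nor is the treatment of doublets. No cell was removed. UMIs were summed per mouse and class (at least 20 cells), rounded, and tested with edgeR 4.0.16 (quasi-likelihood, TMM, filterByExpr, R 4.3.3), with DESeq2 1.42.0 as an alternative and shares by exact permutation (scipy 1.17.1, Python 3.11.15). The edgeR test was checked on simulated counts with the same spread for all genes, so the check does not cover the uneven spread of real genes. Depth ran from 1756235 to 6273335 UMIs of P5 cells per mouse, and intervals (95%, exact) cover counting error only. Class differences used CPM plus 1.

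Members and gene lists were chosen with earlier results of these data known. Named genes are the called genes, or up to 5 per direction of lowest p whose groups do not overlap, the 10 genes per direction of largest median fold between classes with at least 50 CPM, the Siglec genes, Sall1 and list members. Alternatives were another scaling, no filter, each mouse left out, a replicate block, sex as a term, whole values only, equal cell numbers, deepest cells left out, another cell minimum, and, chosen after seeing the data, cells with shared barcodes or T cell UMIs left out and G1 cells only.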

Additional observations from a re-analysis of the deposited data

Results flagged for a closer look

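In groups of 4 samples, 1 sample stood far from the other 3 in 5 of 87 KO groups of P5 values, about as many as chance gives (1 in 20). KO 3 had the lowest Igf1, 0.569 CPM, with the other KO mice at 5.05 to 5.48 CPM. KO 4 had the highest Fcrls, 415 CPM, with the others at 113 to 147 CPM, and the lowest Cd3g, 9.72 CPM, with the others at 12.5 to 13.02 CPM. KO 1 had the lowest sum of macrophage transcription factors, 5126 CPM, with the others at 6998 to 7154 CPM. KO 2 had the highest median mitochondrial share of P5 cells, 3.18%, with the others at 2.40 to 2.52%.

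The genotype difference in P5 cells differed from that in P1-P2 cells for 2 genes by the interaction test in edgeR, Procr (2.74 on the log2 scale) and Igkv1-135. Igkv1-135 had 321 UMIs in WT P5 cells, all in WT 2, and 0 of 9827524 UMIs in KO P5 cells, which allows up to 0.305 CPM.

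Against microglia the genotype difference differed for 23 of 405 list members tested (5.68%, against 0.557% of all 10593 genes), all by the same interaction test over 3 KO and 3 WT mice. List members and all genes were not matched for level, so the 2 shares are not directly comparable. Tested within each class alone, edgeR called 2 of 4820 genes in microglia and 2 of 10632 in P5. H2-Aa had an adjusted p of 0.824 in microglia and 0.818 in P5 by those edgeR fits. With each of the 6 mice left out in turn, 3 of the 23 (Lgals3, H2-Aa and Pgk1) were called in all 6 fits, 6 in 4 or 5 fits and 14 in 3 or fewer, with Fth1 and Tlr2 called in 1. The genotype difference was higher in P5 cells for 5 of 12 antigen presentation genes, H2-Aa (1.60), Cd74 (1.38), H2-Ab1 (1.44), H2-Eb1 (1.28) and H2-DMb1 (1.43). It was higher for 7 of 24 glycolysis and hypoxia genes, Pgk1 (1.84), Pkm (1.14), Gpi1 (1.23), Tpi1 (1.199), Mif (1.14), Eno1 (1.16) and Bnip3 (1.72). It was also higher for Lgals3 (2.09), Ctsl (1.09), Il1rn (1.43), Fth1 (1.03) and Il12b (3.87, on 2 UMIs in KO microglia). It was lower in P5 cells for Crybb1 (-4.28), Arg1 (-1.90), Rsad2 (-1.48), Axl (-1.16), Ccr1 (-1.50) and Tlr2 (-0.95). Pgk1 averaged 313 CPM in KO and 270 CPM in WT P5 cells and 61.8 and 178 CPM in KO and WT microglia, so the gap lay on the microglia side. Arg1 averaged 323 and 313 CPM in P5 cells and 108 and 29.3 CPM in microglia, where KO mice had 52 UMIs in all.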

How the results depend on the processing

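Of 798 log2 differences of single genes between the genotypes under alternatives, 752 kept their direction and side of the threshold, 27 passed it anew, 19 no longer passed it and none reversed. The minimum of 10 cells per mouse left out no mouse, so it repeated the main fit and adds only unchanged values. Some of the genes were chosen because their groups did not overlap, so a reversal was unlikely for them. The 2 genes called between genotypes in P5 cells became 20 with DESeq2, 117 with no filter on low counts (58 higher, 59 lower), 1 with whole values only (H2ac8 was not tested there), 0 with equal cell numbers (Crybb1 was not tested there), 0 without the deepest 5% of cells, 1 without cells with a T cell UMI and 0 with G1 cells only. Leaving out 1 mouse gave 0 to 4. With no filter, 16 genes differed against P3 and 27 against P1-P2. With 1 mouse left out, these interaction counts were 0 to 1 against P3, 0 to 6 against P1-P2 and 14 to 100 against microglia. The cause of these moves was not tested. Mice left out gave 103 to 109 genes 2-fold apart from P3 (99 with all mice), 284 to 331 from P1-P2 (275) and 642 to 730 from microglia (572), as fewer mice must agree. Adding 5 CPM in place of 1, also an alternative for the class differences, cannot raise these counts and can lower them. Its counts are not given here.

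Leaving out 1 mouse moved the difference in share of all cells between -12.0 and -8.52 points, of myeloid cells between -4.73 and -1.69, and of monocyte-derived cells between 1.13 and 9.68. Same-numbered mice did not deviate together (correlations 0.0854, -0.00078 and -0.205). With a replicate block 3 genes were called, all higher in KO (Rps3a3, Rps3a2 and Gm5586), and both genes called without it, lower in KO, were lost. KO 1 had 34 P1-P2 cells and KO 2 had 21 microglia, which limits the precision of their values.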
